A study of Mus musculus with 10 samples.

Results

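Transcripts of somatostatin and its receptors were measured in the endocrine cells of the mouse pancreatic islet. The members are 7 of the 19213 genes in the deposited expression table, chosen by name: the ligands Sst and Cort and the receptors Sstr1, Sstr2, Sstr3, Sstr4 and Sstr5. All 7 were present in the table. RNA was sequenced from delta, beta and alpha cells sorted by FACS from islets of adult mice of both sexes. Every animal carried mIns1-H2b-mCherry, which marks beta cells under the mouse Ins1 promoter, and a floxed YFP allele. That allele was switched on by Sst-Cre for delta cells or by Gcg-cre for alpha cells, so a YFP-labelled cell is one in which the Cre has been active at some time. Delta cells gave 2 libraries (1 male, 1 female), beta cells 5 (2 male, 3 female) and alpha cells 3 (2 male, 1 female). The labels list no treatment, and all islets were cultured overnight in 5.5 mM glucose before dissociation. Each pool held the islets of 10 to 12 animals of 1 sex. Beta cells came from the same islets as the delta or the alpha cells. Neither the sharing of islets between given libraries nor the cross behind each beta library is stated. The titles of 8 libraries form 4 sets of a beta and a YFP library of 1 sex with adjacent numbers, whose meaning is not given. Apart from a letter b, alpha replicates 1 and 2 share a title number and sex, as do beta replicates 4 and 5. What that letter marks, and whether these are separate pools, is not given either. Libraries were treated as independent, and p-values measure only the spread between them.

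Somatostatin is the peptide hormone of delta cells. It acts over short distances within the islet and inhibits the release of both insulin and glucagon. Its receptors couple to inhibitory G proteins of the Gi and Go class, which lower cyclic AMP, open inwardly rectifying potassium channels and close voltage-gated calcium channels. Cortistatin, the product of Cort, is a related peptide that binds the same receptors, and Sstr3 is known as a receptor of the primary cilium.

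The Sst promoter is the textbook case of a cyclic AMP response element, the palindrome TGACGTCA bound by CREB. The element is shown here in the Sst promoter and in the other member promoter that holds it. Promoter windows from RefSeq on GRCm38.p6, each with 250 bases before and 50 after an annotated start, were matched for 5 of the 7 members (Sst, Cort, Sstr2, Sstr3 and Sstr4, with 6 windows in all since Sstr3 has a pair of starts). The element was found in the windows of Sst and Sstr2 and not in the other 4. Of 32851 such windows in the genome, 1.79% hold it. The stretches below run 5′ to 3′ on the strand of the gene, with the element in capitals.
Sst, chr16:23890874-23890903, minus strand: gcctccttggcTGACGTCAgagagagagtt
Sstr2, chr11:113619258-113619287, plus strand: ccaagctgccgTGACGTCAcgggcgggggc
The element lies 48 to 41 bases upstream of the RefSeq start of Sst and 58 to 51 bases upstream of that of Sstr2. The GENCODE model of Sst starts further upstream (chromosome 16, 23889573 to 23890958), so that the stretch falls inside it. The match is of letters only.

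Library totals recovered from the table lay between 16688097 and 26684086 reads. Values are RPKM, reads scaled to the length of the gene and to the total of the library, and they were tested as log2(RPKM + 1). The summed level of 11 delta markers was 2447 to 2592 RPKM in delta cells, 64.1 to 108.8 in beta cells and 338.6 to 399.8 in alpha cells, although Lepr, Pdlim4 and Bcl11b of that list averaged under 1 RPKM in delta libraries. The summed level of 10 alpha markers was 250400 to 280100 RPKM in alpha cells, 22150 to 24230 in delta cells and 771.2 to 3119 in beta cells. That of 10 beta markers was 266600 to 495200 RPKM in beta, 31640 to 32420 in delta and 4067 to 4977 in alpha libraries. The summed level of 5 markers of pancreatic polypeptide and epsilon cells was 44170 to 44800 RPKM in delta cells, 9611 to 15260 in alpha cells and 810.6 to 1562 in beta cells. No marker of these 4 lists was at 0 in every library of a group. Of cell types outside the endocrine islet, 11 acinar markers summed to 694.4 to 911.0 RPKM in delta, 216 to 10750 in beta and 91.5 to 3335 in alpha libraries. The 7 ductal markers summed to 344.3 to 414.0, 548.1 to 714.8 and 842.6 to 1951 RPKM in the same order. The 9 immune markers summed to 76.1 to 89.4, 111.9 to 208.8 and 24.3 to 44.4 RPKM, with 2 of them at 0 in delta libraries. Of 7 tested immune markers, 6 were called lower and 1 higher in delta, and 7 lower in alpha, against beta cells. For all tested genes the shares were 13.3% lower and 37.4% higher in delta, and 30.3% lower in alpha. Single genes made up much of some sums. In delta, beta and alpha libraries, Iapp of the beta list averaged 28950, 55440 and 2310 RPKM, and Ins2 2561, 249600 and 1878. Rbp4 of the delta list averaged 1875, 21.8 and 342 RPKM in that order. Spp1 of the ductal list averaged 165, 226 and 1281 RPKM, and C1qa of the immune list 65.6, 28.9 and 14.2. The part of other cell types in the differences between sorts was not tested. In sorted bulk RNA, fewer cells of a type and less RNA per cell cannot be told apart.

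Sst was the most abundant transcript of the delta libraries. It stood at 52390 and 60770 RPKM there and took 3.14% and 3.64% of all reads. The beta libraries held 99.6, 200.4, 353, 535 and 922 RPKM, and the alpha libraries 2937, 1080 and 1470. The alpha and beta ranges do not overlap, and how many of all genes separate in this way was not counted. The delta sort selected on Sst-Cre, so the delta level is given as a description. Between the other sorts, Sst averaged 1829 ± 979 RPKM (SD, n = 3) in alpha against 422 ± 324 (n = 5) in beta libraries. The log2 fold change was 2.54 (SE 0.63, adjusted p = 0.00805 by limma, the source of all adjusted p-values here). By mean level Sst ranked 12 of 19213 genes in alpha and 50 in beta libraries.

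Of the 11 delta markers, 3 ranked the 5 beta libraries in the same order as Sst did. They are Hhex, the homeobox factor of delta cells, Ghsr, the ghrelin receptor, and Spock3. The other 8 gave another order, with Frzb highest in beta replicate 2 and Pdlim4 in beta replicate 1. Hhex and Ghsr are given in full and were picked after their values were seen. As a percent of its delta mean, Sst was at 0.176%, 0.354%, 0.624%, 0.946% and 1.63% in beta replicates 1 to 5. Hhex was at 0.179%, 0.408%, 0.478%, 0.643% and 1.38% in the same libraries, and Ghsr at 0.0888%, 0.229%, 0.446%, 0.481% and 1.47%. In alpha replicates 1 to 3, Sst stood at 5.19%, 1.91% and 2.60% of its delta mean, Hhex at 2.81%, 1.08% and 1.58%, and Ghsr at 2.99%, 1.13% and 1.10%. Alpha replicate 1 was the highest of its group for all 3 genes, and for 7 of the 11 markers. Over the whole list of 11 delta markers, the median percent was 1.62% for the beta mean, with a range from 0.542% to 73.3%, and 7.47% for the alpha mean, with a range from 1.07% to 49.8%. The part of delta cells among the sorted beta and alpha cells in the Sst values was not tested.

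Cort was near the limit of detection in all 3 sorts. It reached 0.894 and 0.541 RPKM in delta libraries, 0.153, 0.0822, 0.452, 0.259 and 0.226 in beta libraries, and 0.481, 1.55 and 2.19 in alpha libraries. These levels rest on 9 and 5 reads, on 1 to 4 reads and on 4, 13 and 19 reads per library. Alpha replicate 1 lay below both delta libraries and just above the highest beta library. Cort passed the filter on low values only through alpha replicates 2 and 3. It was called higher in alpha than in beta cells (log2 fold change 0.92, SE 0.23, adjusted p = 0.00851), and with no filter the adjusted p was 0.0150. Pooled reads were 36 in alpha libraries (exact Poisson 95% interval 25.2 to 49.8) and 13 in beta libraries (6.92 to 22.2), from totals of 51010236 and 118330887 reads. Intervals on reads cover counting error only. Without alpha replicate 3 the call was lost (0.56, adjusted p = 0.0971). The comparisons of delta with beta (0.48, SE 0.26, adjusted p = 0.144) and of delta with alpha (-0.44, SE 0.28, adjusted p = 0.258) did not pass, and their 95% intervals ran from -0.099 to 1.07 and from -1.07 to 0.20. Cort lies on chromosome 4 (149125034 to 149126763, minus strand, GENCODE), 357 bp downstream of Cenps on the same strand. Cenps, listed in the table as Apitd1, averaged 11.8 ± 1.41 RPKM in delta cells, 9.05 ± 1.17 in beta cells and 13.8 ± 1.40 in alpha cells. Its part in the Cort reads was not tested.

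The receptors divided by cell type. Sstr3 was the receptor common to all 3 sorts and made up nearly all receptor transcripts of beta cells. Sstr1 was added to it in delta cells and Sstr2 in alpha cells, while Sstr4 and Sstr5 averaged under 0.05 RPKM in every sort. Of the 7 members, 5 passed the filter of 1 RPKM in 2 libraries. Sstr1, Sstr2 and Cort passed it only through delta or alpha libraries, and the delta sort selected on Sst-Cre. The counts of called members, Sst among them, and the tests of Sstr1, Sstr2 and Cort are therefore descriptions. Between delta and beta cells 3 members were called higher and 0 lower, where 37.4% of the 12700 tested genes were called higher and 13.3% lower. Between alpha and beta cells 4 were called higher and 1 lower, against 23.7% and 30.3% of all tested genes. Between delta and alpha cells 3 were called higher in delta and 1 lower, against 32.1% and 5.89%. The comparisons share libraries and are not independent of each other.

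**Figure D1:**
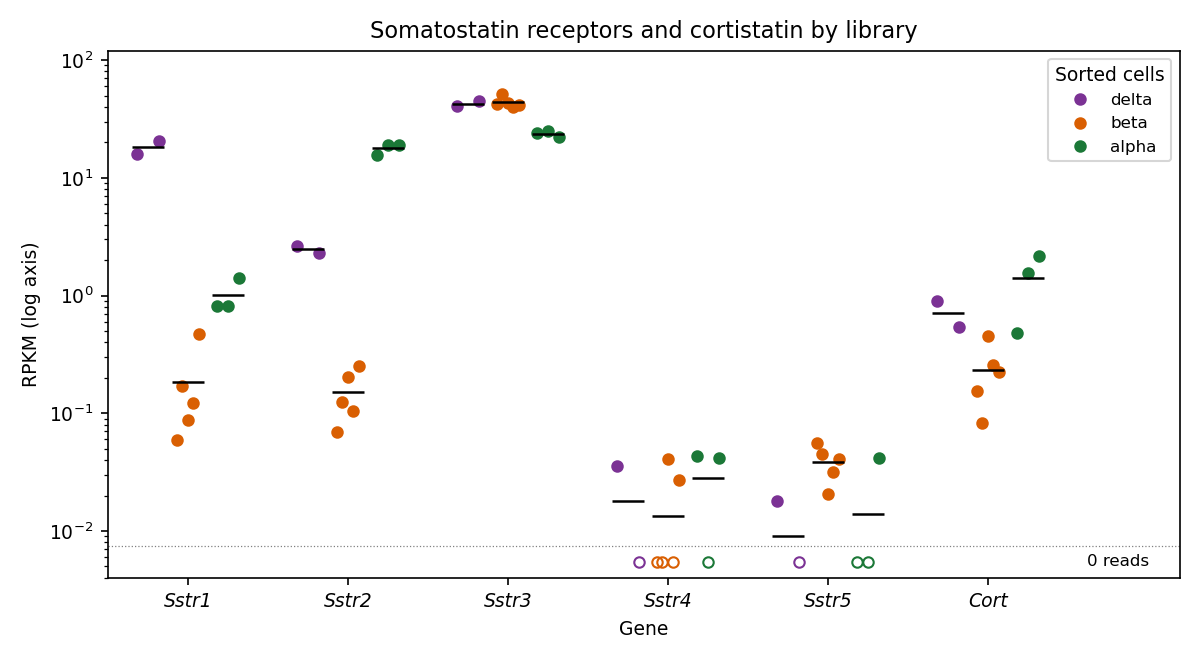
Level of the 5 somatostatin receptor genes and of Cort in each library, in RPKM on a log axis, by sorted cell type. Each filled point is 1 library, open points below the dotted line are libraries with 0 reads, and bars are group means. Sstr3 lies between 22.2 and 51.9 RPKM in all 10 libraries, Sstr1 is highest in the delta libraries, Sstr2 in the alpha libraries, and Sstr4 and Sstr5 reach at most 0.0558 RPKM.

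Sstr3 was the receptor with the highest level in each sort. It is encoded on chromosome 15 (78537008 to 78544685, minus strand). In RPKM, the delta libraries gave 40.6 and 44.8, the beta libraries 42.6, 51.9, 43.0, 39.6 and 41.7, and the alpha libraries 24.1, 24.9 and 22.2. The delta values lie inside the beta range, and all alpha values lie below both. Between alpha and beta cells the log2 fold change was -0.85 (SE 0.10, adjusted p = 0.000122), with means of 23.7 ± 1.36 RPKM (n = 3) and 43.8 ± 4.76 (n = 5), a ratio of 0.542. Between delta and beta cells it was -0.03 (SE 0.11, adjusted p = 0.841, 95% interval -0.29 to 0.23). Delta exceeded alpha libraries by 0.82 (SE 0.12, adjusted p = 0.000848). This last call was lost under median-ratio scaling (0.51, adjusted p = 0.0540), which moves the median of all genes in that comparison from 0.26 to -0.01. The same scaling set the delta to beta difference of Sstr3 at -0.32 (adjusted p = 0.114).

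Sstr1 was abundant in the delta sort. The gene lies on chromosome 12 (58211772 to 58214444, plus strand). It stood at 16.0 and 20.5 RPKM in delta libraries, on 1254 and 1475 reads. Beta libraries had 0.0591, 0.169, 0.0873, 0.122 and 0.475 RPKM on 6, 16, 6, 11 and 49 reads, and alpha libraries had 0.821, 0.812 and 1.41 RPKM on 53, 53 and 95 reads. The 3 ranges do not overlap, and how many of all genes separate in this way was not counted. The delta mean of 18.3 ± 3.18 RPKM (n = 2) was 100.2 times the beta mean and 18.0 times the alpha mean. Without beta replicate 5 the first ratio was 166.9. The log2 fold changes were 4.06 against beta (SE 0.13, adjusted p = 4.54e-08) and 3.21 against alpha libraries (SE 0.14, adjusted p = 5.41e-07). The pseudocount compresses them, and with a pseudocount of 0.1 the difference from beta libraries was 6.25. Sstr1 passed the filter only through delta and alpha libraries, so its tests are descriptions. By mean level Sstr1 ranked 4223 of 19213 genes in delta cells, 11640 in alpha cells and 13697 in beta cells.

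At its low level outside the delta sort, Sstr1 was higher in alpha than in beta libraries. The log2 fold change was 0.84 (SE 0.11, adjusted p = 0.000238), and it was 2.30 with a pseudocount of 0.1 and 2.84 by limma's voom on recovered reads. Set against its delta mean, Sstr1 in beta replicates 1 to 5 was at 0.323%, 0.926%, 0.478%, 0.669% and 2.60%. In alpha replicates 1 to 3 it was at 4.49%, 4.44% and 7.70%. Alpha replicate 3 was the highest of its group for Sstr1, as it was for the delta markers Hmgb3 and Pdlim4. Alpha replicate 1 was the highest for Sst and for 7 of the 11 delta markers, and alpha replicate 2 for Rbp4 and Lepr. The part of delta cells in the low Sstr1 values was not tested.

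Sstr2 was the second receptor of alpha cells. Alpha libraries had 15.6, 19.2 and 19.2 RPKM, on 430, 534 and 551 reads. Delta libraries had 2.64 and 2.29 RPKM on 88 and 70 reads, and beta libraries 0.0694, 0.124, 0.205, 0.104 and 0.25 RPKM on 3, 5, 6, 4 and 11 reads. The 3 ranges do not overlap, and how many of all genes separate in this way was not counted. The alpha mean of 18.0 ± 2.05 RPKM (n = 3) was 119.5 times the beta mean and 7.30 times the delta mean. The log2 fold change was 4.05 against beta libraries (SE 0.11, adjusted p = 2.39e-08), and delta was lower than alpha by -2.45 (SE 0.14, adjusted p = 1.71e-06). With a pseudocount of 0.1 the difference between alpha and beta was 6.24. As with Sstr1, the filter was passed only through alpha and delta libraries, so the tests of Sstr2 are descriptions. Sstr2 lies on chromosome 11 (113619342 to 113626028, plus strand) within Slc39a11, a zinc transporter gene on the other strand. Their annotated exons do not overlap. The libraries do not mark strand, and Slc39a11 averaged 27.4 ± 0.92 RPKM in alpha cells, 23.2 ± 0.52 in delta cells and 12.2 ± 0.58 in beta cells.

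In delta cells Sstr2 was 16.4 times its beta mean (log2 fold change 1.59, SE 0.12, adjusted p = 9.04e-06). With a pseudocount of 0.1 the value was 3.41, and it was 4.07 by voom on recovered reads. Alpha markers in the delta libraries varied widely as a share of their alpha mean. Sstr2 in delta libraries was at 14.7% and 12.7% of its alpha mean. Gcg, the glucagon gene, was at 8.33% and 9.11%, the homeobox gene Irx1 at 11.9% and 13.1%, Irx2 at 16.0% and 14.8%, and Pou3f4 at 8.46% and 11.3%. Gc was at 71.7% and 74.7% and Etv1 at 94.8% and 86.5%. Over all 10 alpha markers the median was 12.9% in delta replicate 1 and 12.7% in delta replicate 2, with ranges from 8.33% to 94.8% and from 9.11% to 86.5%. In beta libraries Sstr2 was at 0.386% to 1.39% of its alpha mean, and Gcg at 0.182% to 1.12%. Over all 10 alpha markers the median percent was 2.41% for the beta mean, with a range from 0.460% to 16.7%. The part of alpha cells in the Sstr2 level of the delta libraries was not tested.

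**Figure D2:**
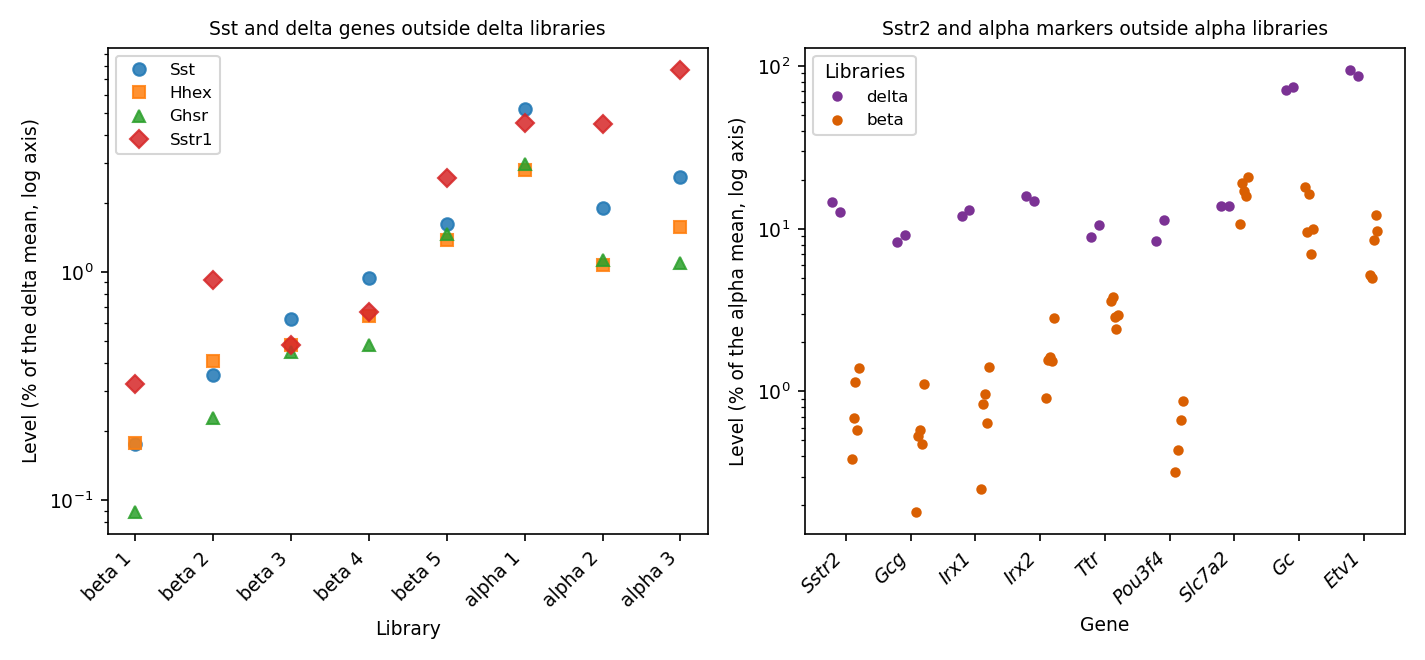
Levels of genes outside the sort they mark, on log axes. The left panel plots Sst, Hhex, Ghsr and Sstr1 in each beta and alpha library as a percent of their delta mean, and Sst ranges from 0.176% in beta replicate 1 to 5.19% in alpha replicate 1. The right panel plots Sstr2 and 8 alpha markers in the delta and beta libraries as a percent of their alpha mean, with libraries at 0 left out. Sstr2 in the delta libraries (14.7% and 12.7%) lies among Gcg, Irx1, Irx2, Ttr, Pou3f4 and Slc7a2, and below Gc and Etv1.

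Sstr4 and Sstr5 had at most 4 reads in any library. Sstr4 (chromosome 2, 148395344 to 148396767) had 1 read in delta replicate 1, 1 in each of beta replicates 3 and 5 and 1 in each of alpha replicates 1 and 3, and 0 in the other 5 libraries. Pooled over a sort this was 1, 2 and 2 reads in delta, beta and alpha libraries. Against a pooled depth of 118330887 reads in beta libraries, the exact Poisson 95% interval of the Sstr4 level ran from 0.0015 to 0.044 RPKM. Sstr5 (chromosome 17, 25489875 to 25497288), the receptor often linked to the control of insulin release, had 4, 3, 1, 2 and 3 reads in beta replicates 1 to 5, 1 and 0 reads in delta libraries and 0, 0 and 2 in alpha libraries. The pooled beta level of Sstr5 was 0.040 RPKM (95% interval 0.021 to 0.069), against 0.0094 RPKM in delta (0.00024 to 0.053) and 0.014 in alpha libraries (0.0017 to 0.052). These intervals overlap. The 13 pooled reads of Sstr5 in beta libraries are above a set floor of 3 reads, and the 1 and 2 reads in delta and alpha libraries are not. These counts do not show absence in delta or alpha cells, where pooled depths were 38779772 and 51010236 reads against 118330887 in beta libraries. Both genes were left out of the tests by the filter, so no difference between sorts was tested for them.

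The makeup of the receptor transcripts differed by sort more than their sum did. The summed level of the 5 receptors was 59.3 and 67.6 RPKM in delta libraries, 39.8 to 52.3 in beta libraries with a median library at 42.8, and 40.6, 44.9 and 42.9 in alpha libraries. As deposited, delta libraries lie above all others, and the alpha range lies inside the beta range. Under median-ratio scaling the delta sums were 49.1 and 57.6, inside and above a beta range of 39.4 to 56.5. Delta and beta libraries thus no longer separated, while both delta sums stayed above the alpha sums of 45.45, 44.94 and 44.18. In beta libraries Sstr3 made up 99.1 ± 0.57% (SD, n = 5) of the sum. In delta libraries Sstr3 took 67.3 ± 1.53% (n = 2), Sstr1 28.7 ± 2.35% and Sstr2 3.92 ± 0.76%. In alpha libraries Sstr3 took 55.6 ± 3.78% (n = 3), Sstr2 42.0 ± 3.18% and Sstr1 2.37 ± 0.80%. Sstr4 and Sstr5 each stayed under 0.14% in every library. RPKM are per length of gene, so these shares compare transcripts and not proteins.

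**Figure D3:**
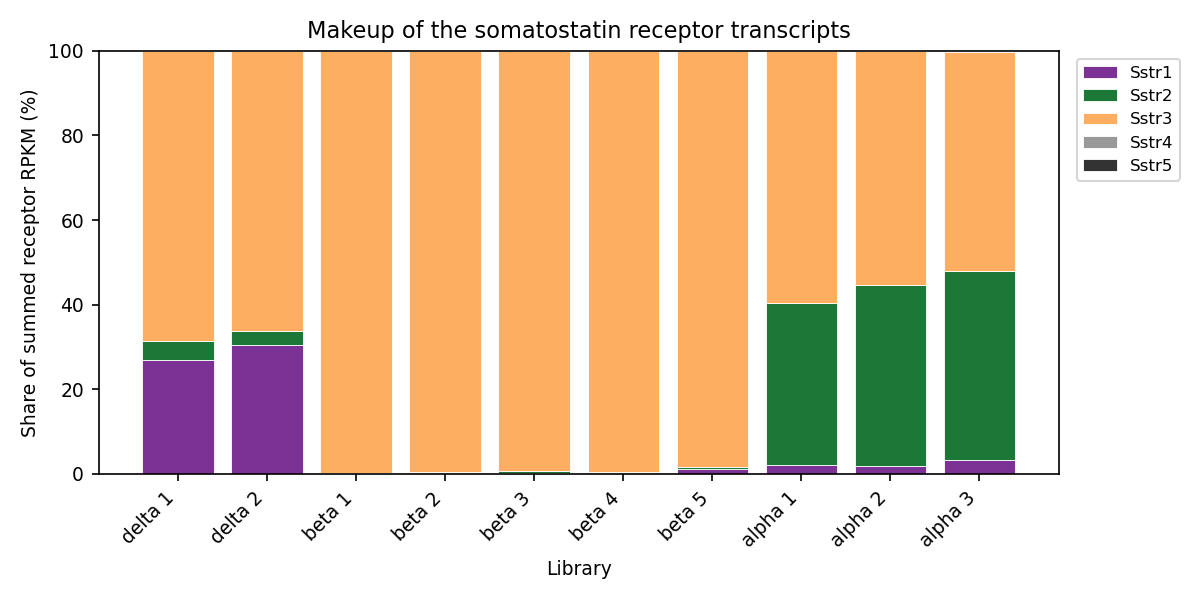
Share of each receptor in the summed RPKM of Sstr1 to Sstr5, in percent, for each of the 10 libraries. Sstr3 fills 98.1% to 99.6% of each beta library, Sstr1 27.0% and 30.4% of the delta libraries, and Sstr2 38.5% to 44.7% of the alpha libraries.

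The genes whose levels were most like those of each member over the 10 libraries were found by Pearson correlation of log2(RPKM + 1). For Sst these were Tox (r = 0.993), Rexo4 (r = 0.989) and Id2 (r = 0.989). For Sstr1 they were Syne3 (0.997), Vcan (0.997) and Gyk (0.996), with Syne3 at 5.13, 0.264 and 0.693 RPKM in delta, beta and alpha libraries. For Sstr2 they were Dnah11 (0.998), the vasopressin receptor gene Avpr1b (0.997) and Sytl2 (0.997), with Avpr1b at 4.09, 0.295 and 42.4 RPKM in delta, beta and alpha libraries. For Sstr3 they were Aldh2 (0.990), Eftud2 (0.990) and Surf4 (0.989). Among the members, Sst and Sstr1 had r = 0.954, and Sstr2 and Sstr3 had r = -0.918. The 10 points share their sorts and depths, and no test was made.

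Sex made no called difference in the members, where 0.0472% of the tested genes were called for sex. Sstr1 had the largest one on unadjusted p. In each sort every female library was above every male library, with 20.5 against 16.0 RPKM in delta cells, 1.41 against 0.821 and 0.812 in alpha cells, and 0.122 to 0.475 against 0.0591 and 0.0873 in beta cells. The log2 difference between female and male libraries was 0.30 (SE 0.097, unadjusted p = 0.0140, adjusted p = 0.770 by limma). How many of all genes have every female library above every male library in each sort was not counted. For Sst, Cort, Sstr2 and Sstr3 the limma unadjusted p-values lay between 0.281 and 0.890. The difference between the sex effects of alpha and beta cells had an adjusted p of 0.999986 by limma for each of the 5 tested members, with 1 female alpha library.

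Somatostatin is cut from its precursor by proprotein convertases and trimmed by carboxypeptidase E. Of 10 tested processing genes, 2 were called higher and 2 lower in delta against beta cells (median log2 fold change 0.18, 0.25 over all genes), and 3 were called higher and 3 lower in alpha against beta cells (0.098, -0.02 over all genes). Over all tested genes the shares were 37.4% higher and 13.3% lower in delta, and 23.7% and 30.3% in alpha, against beta cells. The convertase gene Pcsk1 averaged 28.8 ± 1.95 RPKM in delta cells, 250 ± 52.4 in beta cells and 3.16 ± 0.21 in alpha cells. Its log2 fold changes were -3.02 (delta to beta, adjusted p = 6.26e-07) and -5.82 (alpha to beta, adjusted p = 1.49e-08). Pcsk2, the other granule convertase, was at 1028 ± 77.4, 752 ± 128 and 1164 ± 93.0 RPKM, and Cpe, which encodes carboxypeptidase E, at 1431, 1977 and 2102 RPKM. The Pcsk2 call between delta and beta cells (0.48) was lost without delta replicate 1, delta replicate 2 or beta replicate 3 (adjusted p = 0.144, 0.167 and 0.0657) and under median-ratio scaling (0.18, adjusted p = 0.537). The count of processing genes higher in delta cells was 0 under that scaling and without delta replicate 2, and 1 without delta replicate 1 or beta replicate 3, and the count lower was 1 without either delta replicate.

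Of 7 tested peptidases able to break down such peptides, 4 were called higher and 2 lower in delta against beta cells. In alpha against beta cells 0 were higher and 6 lower. The medians were 0.58 and -0.38, with 0.25 and -0.02 over all genes. Shares of all tested genes were 37.4% higher and 13.3% lower in delta, and 23.7% and 30.3% in alpha, against beta cells. The count of 4 was 1 without delta replicate 1 and under median-ratio scaling, the count of 2 was 0 without either delta replicate and 1 without beta replicate 4, and the count of 6 was 3 without alpha replicate 3. Anpep, aminopeptidase N, averaged 26.7 ± 3.20 RPKM in delta cells, 16.3 ± 2.03 in beta cells and 3.73 ± 0.35 in alpha cells (delta to alpha 2.55, adjusted p = 2.79e-06). Ide, the insulin-degrading enzyme, averaged 28.9 ± 2.76, 14.7 ± 1.90 and 11.1 ± 0.62 RPKM in delta, beta and alpha libraries (delta to beta 0.94). Mme, the gene of neprilysin, averaged 0.0042, 0.0041 and 0.0031 RPKM in delta, beta and alpha libraries and was not tested.

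Of 16 tested factors known to act on the Sst gene or in its cells, 8 were called higher and 1 lower in delta against beta cells (median 0.50, 0.25 over all genes). The count lower was 3 under median-ratio scaling and 2 without alpha replicate 1. Of all tested genes, 37.4% were called higher and 13.3% lower in delta against beta cells. Hhex averaged 193 ± 0.19 RPKM in delta cells, 1.19 ± 0.88 in beta cells and 3.51 ± 1.72 in alpha cells. Pdx1, which binds the Sst promoter as well as insulin genes, was at 74.1 ± 5.85 RPKM in delta cells, 96.9 ± 14.5 in beta cells and 3.84 ± 1.08 in alpha cells (delta to alpha 3.97). Isl1, a LIM homeobox factor, averaged 178 ± 0.89, 41.5 ± 9.41 and 79.0 ± 4.83 RPKM (delta to beta 2.11, adjusted p = 2.05e-05). Creb1, whose product binds the element shown above, was at 13.6 ± 1.33 RPKM in delta cells, 7.94 ± 3.05 in beta cells and 12.2 ± 2.29 in alpha cells and was not called in either comparison with beta cells.

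Among the G proteins that carry the receptor signal, single alpha subunits differed between the sorts in either direction. Gnai2 was the most abundant in each sort, at 287 ± 16.2 RPKM in delta cells, 516 ± 56.8 in beta cells and 148 ± 6.34 in alpha cells, with log2 fold changes of -0.85 (delta to beta, adjusted p = 0.000248) and -1.81 (alpha to beta, adjusted p = 7.93e-07). Gnao1, which encodes the Go subunit, was at 124 ± 0.68, 65.2 ± 10.2 and 92.9 ± 3.79 RPKM (delta to beta 0.94, alpha to beta 0.55). Gnai1 was at 42.5 ± 6.40 RPKM in alpha against 4.01 ± 1.81 in beta and 6.75 ± 0.23 in delta libraries (alpha to beta 3.19, adjusted p = 1.35e-05). Of 5 tested alpha subunits 2 were called higher and 1 lower in delta against beta cells, and 2 were called higher and 3 lower in alpha against beta cells. Of 11 tested beta and gamma subunits 4 were higher and 3 lower in delta, and 4 were higher and 4 lower in alpha, against beta cells. Over all tested genes, 37.4% were higher and 13.3% lower in delta, and 23.7% and 30.3% in alpha, against beta cells. The subunit counts are descriptions. Single libraries and the scaling moved these counts. Under median-ratio scaling 1 alpha subunit was higher and 2 lower in delta against beta cells, and 2 beta and gamma subunits were higher. Without delta replicate 1, delta replicate 2, beta replicate 4 or alpha replicate 1 the higher alpha subunits of delta cells were 1, without beta replicate 1 or 2 the lower ones were 2, and without alpha replicate 3 the lower ones of alpha cells were 1. Of the beta and gamma subunits, 2 were higher in delta cells without delta replicate 2, 1 was lower without delta replicate 1, and 2 were higher in alpha cells without beta replicate 3, alpha replicate 1 or alpha replicate 3. Gng2, a gamma subunit, was at 23.7 ± 1.34 RPKM in delta cells, 2.25 ± 0.81 in beta cells and 18.8 ± 3.79 in alpha cells (delta to beta 2.96, alpha to beta 2.62).

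The potassium channels that such receptors open were low in beta cells. Of 4 genes of the Kcnj3 family 2 passed the filter, and both were higher in delta and in alpha than in beta cells. Kcnj3 passed the filter only through delta and alpha libraries, so its tests are descriptions. Kcnj3 averaged 4.25 ± 0.34 RPKM in delta cells, 0.0744 ± 0.091 in beta cells and 11.2 ± 1.33 in alpha cells (2.30 and 3.52, adjusted p = 1.03e-06 and 4.04e-08). Kcnj6 averaged 3.87 ± 0.048, 1.35 ± 0.41 and 4.14 ± 0.99 RPKM (1.09 and 1.19). Of 7 tested pore genes of voltage-gated calcium channels, 5 were called higher and 0 lower in delta against beta cells (median 0.96, 0.25 over all genes). Cacna1g, Cacna1h and Cacna1i passed the filter only through delta or alpha libraries, so this count and median are descriptions. Of the pore genes, Cacna1h, a T-type channel, was at 25.1, 0.182 and 0.549 RPKM in delta, beta and alpha libraries. Cacna1d, the L-type channel of endocrine cells, was at 17.4, 18.7 and 17.3 RPKM and was not called in any comparison. Of 6 tested adenylyl cyclases, 4 were called higher and 0 lower in delta against beta cells (median 1.11, 0.25 over all genes), and 3 were called higher and 1 lower in alpha against beta cells. Beside these channel and cyclase counts, 37.4% of all tested genes were called higher and 13.3% lower in delta against beta cells. In alpha against beta cells the shares were 23.7% and 30.3%. Adcy2, Adcy5 and Adcy8 passed the filter only through delta or alpha libraries, so the cyclase counts are descriptions. The count lower was 1 in delta cells under median-ratio scaling and without beta replicate 1, and 0 in alpha cells without beta replicate 3, alpha replicate 1 or alpha replicate 3. Adcy6, a cyclase inhibited by Gi, averaged 51.7 ± 1.10 RPKM in delta cells, 19.9 ± 3.92 in beta cells and 41.8 ± 4.50 in alpha cells (delta to beta 1.37, alpha to beta 1.10). Adcy8, a calcium-stimulated cyclase, averaged 7.42 ± 0.078 RPKM in delta against 0.102 ± 0.050 in beta and 0.179 ± 0.072 in alpha libraries.

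Receptor kinases and arrestins end the signal and take receptors into the cell. Of 6 tested, 3 were called higher and 2 lower in delta against beta cells, and 0 were called higher and 3 lower in alpha against beta cells. The shares of all tested genes were 37.4% higher and 13.3% lower in delta, and 23.7% and 30.3% in alpha, against beta cells. Arrb1 passed the filter only through delta libraries. The count of 3 higher in delta cells was 1 without either delta replicate and under median-ratio scaling, and the count of 3 lower in alpha cells was 1 without alpha replicate 3. Grk5 averaged 2.05 ± 0.35 RPKM in delta cells, 12.5 ± 2.37 in beta cells and 5.05 ± 0.75 in alpha cells (delta to beta -2.11, adjusted p = 1.09e-05). The arrestins differed in opposite directions in delta cells. Arrb1 averaged 3.66 ± 0.19 RPKM in delta against 0.582 ± 0.051 in beta and 0.403 ± 0.077 in alpha libraries (delta to beta 1.56), while Arrb2 averaged 7.12 ± 0.49 RPKM in delta against 14.9 ± 1.11 in beta and 17.6 ± 1.39 in alpha libraries (delta to beta -0.98). Of 13 tested RGS genes, whose products speed the shut-off of G proteins, 7 were called higher and 3 lower in delta against beta cells (median 0.79), and 3 were called higher and 4 lower in alpha against beta cells. The count lower in delta cells was 1 without delta replicate 2, and the count higher in alpha cells was 7 without the filter on low values. Rgs9 averaged 61.0 ± 7.77 RPKM in delta cells, 9.76 ± 2.67 in beta cells and 9.61 ± 3.08 in alpha cells (delta to beta 2.58), and Rgs4 averaged 102 ± 13.2, 109 ± 24.5 and 265 ± 95.2 RPKM (alpha to beta 1.25). Ptpn6, a phosphatase that acts below somatostatin receptors, averaged 20.1, 20.4 and 12.1 RPKM in delta, beta and alpha libraries (alpha to beta -0.70). Ptpn11, a related phosphatase, averaged 46.9, 64.8 and 32.7 RPKM (alpha to beta -0.94).

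Of 12 genes of receptor scaffolds and of the cilium, 11 were called higher and 0 lower in delta against beta cells (median 0.76, 0.25 over all genes). That count was 7 under median-ratio scaling and 6 without delta replicate 1. Shank2 and others of the list passed the filter only through delta or alpha libraries, so these counts are descriptions. In alpha cells 7 were higher and 1 lower than in beta cells, and 4 were higher without beta replicate 1, alpha replicate 2 or alpha replicate 3. Without alpha replicate 3, 0 were lower. The shares over all tested genes were 37.4% higher and 13.3% lower in delta, and 23.7% and 30.3% in alpha, against beta cells. Shank2, a scaffold with a PDZ domain, averaged 5.41 ± 0.19 RPKM in delta cells, 0.505 ± 0.23 in beta cells and 1.03 ± 0.38 in alpha cells (delta to beta 2.11). Dlg4, the scaffold PSD-95, averaged 40.8 ± 3.28, 18.4 ± 1.76 and 23.4 ± 1.40 RPKM (delta to beta 1.12). The cilium genes Ift88 and Arl13b were at 13.3 and 7.84 RPKM in delta cells, 8.58 and 3.97 in beta cells and 6.96 and 5.91 in alpha cells. Both were called higher in delta than in beta cells, but not without delta replicate 1 (adjusted p = 0.202 and 0.184), and Ift88 not under median-ratio scaling (adjusted p = 0.0557).

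Against other receptors that couple to inhibitory G proteins, Sstr3 had the highest mean RPKM of the 41 listed receptor genes in delta, beta and alpha libraries. In delta libraries it was followed by the muscarinic receptor Chrm4 (22.1 ± 1.73 RPKM), the short-chain fatty acid receptor Ffar2 (20.8 ± 2.33) and Sstr1. In beta libraries it was followed by the adrenergic receptor Adra2a (33.4 ± 5.74 RPKM), the GABA receptor subunit Gabbr2 (29.3 ± 9.28) and the galanin receptor Galr3 (17.5 ± 2.30). In beta libraries the range of Sstr3 (39.6 to 51.9 RPKM) overlaps those of Adra2a and Gabbr2, whose highest libraries were at 40.0 and 40.5 RPKM. In alpha libraries Sstr2 came second, above the lactate receptor Hcar1 (10.4 ± 0.73 RPKM). Chrm4 averaged 2.26 RPKM in beta and 1.13 in alpha libraries, and Ffar2 14.9 and 7.64 RPKM. Gabbr2 averaged 0.676 RPKM in delta and 2.70 in alpha libraries, Galr3 9.43 and 1.67 RPKM, and Hcar1 1.47 RPKM in delta and 1.56 in beta libraries. Adra2a, the receptor through which adrenaline inhibits insulin release, was at 9.72 ± 0.42 RPKM in delta and 0.683 ± 0.16 in alpha libraries (alpha to beta -4.33, adjusted p = 5.10e-08). Of the 16 other receptors of the list that were tested, 5 were called higher and 7 lower in delta against beta cells, and 4 were called higher and 11 lower in alpha against beta cells. In the former comparison 3 were higher without delta replicate 1 and also without delta replicate 2, and 10 without the filter on low values. Among all tested genes, 37.4% were called higher and 13.3% lower in delta, and 23.7% and 30.3% in alpha, against beta cells.

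**Figure D4:**
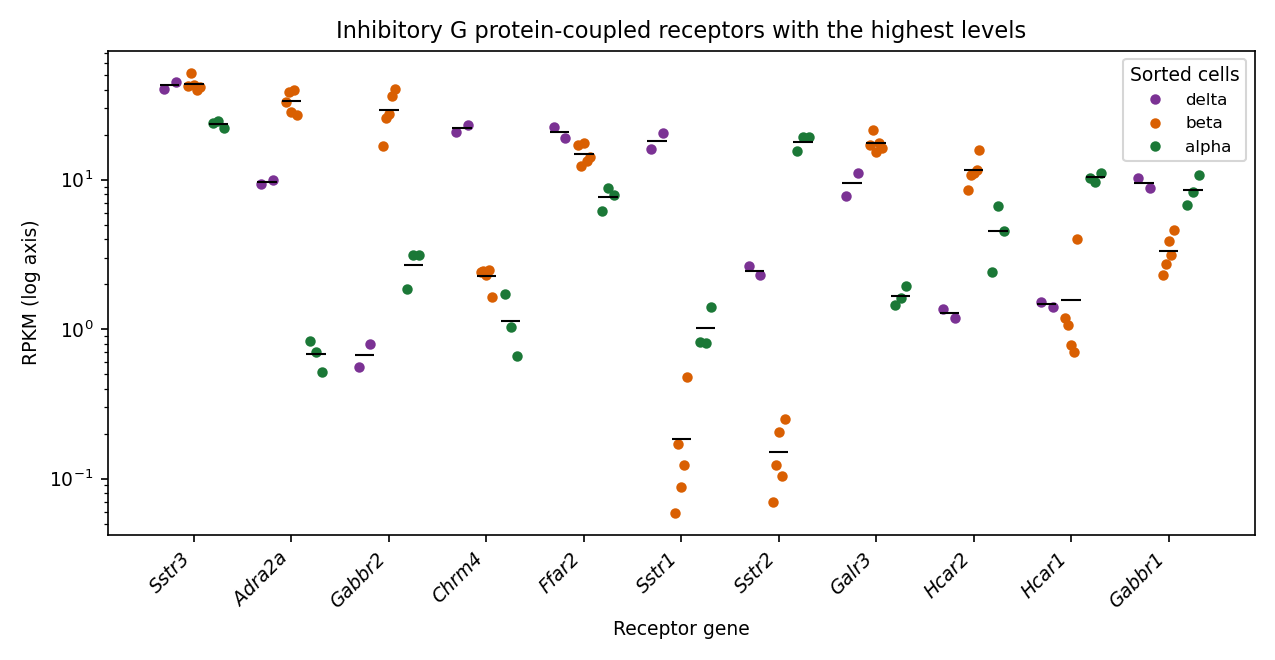
Level of the inhibitory G protein-coupled receptor genes that rank among the highest of the 41 listed in any sort, in RPKM on a log axis, by sorted cell type. Points are libraries and bars are group means. Sstr3 has the highest mean in all 3 sorts, Sstr1 is at 18.3 RPKM on average in delta cells, and Sstr2 at 18.0 RPKM in alpha cells.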

How the data were processed

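RNA from FACS-sorted delta (2 libraries), beta (5) and alpha (3) cells was sequenced from TruSeq RNA v2 libraries, per the labels' protocols. The authors deposited 1 table of RPKM values, a column per library. The submitters' processing notes name STAR 2.4, featureCounts, edgeR 3.12.0 and the build GRCm38.p3. The annotation they used, and whether RPKM carry a scaling factor, is not stated.

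Low RPKM values move in steps of a single read, and these steps gave library totals and whole reads per gene. Each gene's length was taken as the shortest that makes its values whole in all libraries. The 12700 of 19213 genes that reached 1 RPKM in 2 or more libraries were tested on log2(RPKM + 1). A single limma fit (3.58.1, under R 4.3.3) held cell type and sex as terms and a trend of variance with mean, with 6 residual degrees of freedom. Calls were made at a Benjamini-Hochberg adjusted p under 0.05. The pseudocount makes fold changes of low genes smaller than those of RPKM. Some members and list genes passed the filter only through the sorts where they are high. Tests of such genes, and counts and medians of lists, are therefore descriptions. The script was tested on simulated data.

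Gene coordinates are 1-based, from GENCODE on GRCm38, matched by symbol. Members and lists were chosen with earlier results of these data known. Named genes are the members, from each list at most 4 genes called and 2 not called, list members given in all 3 cell types, and the 3 genes most like Sst and each tested receptor. The neighbours Cenps and Slc39a11 were named for their position. Some list genes count in the totals but are not reported here by name. Alternatives varied the pseudocount, filter, scaling, sex term, trend, libraries and model, and a block on sets of titles was added after seeing the data. A floor of 3 reads was set for low counts, while the exact Poisson 95% interval of a count of 0 reaches 3.69 reads.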

Additional observations from a re-analysis of the deposited data

Results flagged for a closer look

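Within the 5 beta libraries, 11 measures of the members were checked for a library far from the others by Dixon's test, which chance alone flags in about 1 of 20 groups. Sstr1 stood at 0.475 RPKM in beta replicate 5, on 49 reads, far above the other 4 beta libraries (0.0591 to 0.169 RPKM). Its share of the receptor sum in that library, 1.12%, and the Sstr3 share, 98.1%, stood apart with it, being parts of the same sum. Beta replicate 5 also had the highest Sst of the beta libraries (922 RPKM) and the highest level of 7 of the 11 delta markers, Hhex and Ghsr among them. Frzb, Lepr, Pdlim4 and Bcl11b were highest in other beta libraries. Beta replicate 2 had the highest Sstr3 level, 51.9 RPKM against 39.6 to 43.0 in the others, and with it the highest receptor sum, 52.3 RPKM.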

How the results depend on the processing

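Calls of Sst, Sstr1 and Sstr2 in all 3 comparisons, and of Sstr3 between alpha and beta cells, kept direction and side of the threshold under all 21 alternatives where a value could be had. The delta sort selected on Sst-Cre, so the Sst calls that involve delta cells are descriptions. So are the calls of Sstr1 and Sstr2, which passed the filter only through delta or alpha libraries. The call of Sstr3 between delta and alpha cells was lost under median-ratio scaling (0.51). Cort depended on single libraries. Between delta and beta cells its log2 fold change of 0.48 passed in the fit of those sorts only (0.46, adjusted p = 0.0247) and when alpha replicate 1 was left out (adjusted p = 0.0328), with a range over left-out libraries of 0.26 to 0.73. Between alpha and beta cells that range was 0.56 to 1.21, and between delta and alpha cells -0.74 to -0.10, where 1 or 2 members were called lower in delta. The filter of 3 RPKM removed Cort.

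Counts over all genes moved with the scaling. Delta to beta, 4750 genes were higher and 1692 lower, but 3120 and 3096 under median-ratio scaling, 2852 and 3200 under quantile normalization, and 2798 lower with hormone reads left out. Left-out libraries gave 2335 to 4987 higher and 938 to 1677 lower. Delta to alpha, 4076 were higher and 748 lower, but 1846 and 1324 under median-ratio scaling, 1963 and 2040 under quantile normalization and 1872 and 1409 with hormone reads left out. Left-out libraries gave 2181 to 4595 higher and 481 to 787 lower. Alpha to beta, 3013 were higher, and 1838 to 3222 over left-out libraries. Higher genes made up 73.7% of delta to beta calls as deposited and 50.2% under median-ratio scaling, and 84.5% and 58.2% of delta to alpha calls.

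Of 3588 values of the other named genes under the alternatives, 3401 kept their call, 123 lost it, 64 gained it and 0 called genes changed direction. A replicate block on the 4 title sets (8 libraries, 2 residual degrees of freedom), chosen after seeing the data, replaced the sex term. Deviations from the group means correlated at 0.00144, 0.372, 0.269 and 0.464 within the sets. With no pairs outside the sets beside them, these values cannot decide whether the sets share islets. The main fit left libraries unpaired because the labels state no pairs. Under the block Cort passed between delta and beta cells (0.61, adjusted p = 0.0159), the other member calls held, and Sst between alpha and beta cells was 1.14 (adjusted p = 0.0129) against 2.54. Depth limits Sstr4, Sstr5 and Cort, which rest on at most 19 reads in a library.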
